A study of Mus musculus with 4 samples.

Results

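The mitochondrial ribosomal protein genes are the nuclear genes whose symbol in the deposited m6ARIP-seq peak table is Mrpl or Mrps followed by a digit. They were 42 genes, 28 of the large subunit (Mrpl) and 14 of the small subunit (Mrps), of 7077 genes with a region in the table. Their proteins are made in the cytosol, imported into mitochondria and assembled on the mitochondrial rRNAs into the ribosome that translates the mitochondrially encoded subunits of the respiratory chain and ATP synthase. The small subunit reads the mRNA and the large subunit forms the peptide bonds and holds the exit tunnel. Brown adipocytes are dense with mitochondria, and their heat production by uncoupled respiration rests on those chain subunits.

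In m6ARIP-seq, fragmented poly(A)+ RNA is pulled down with an antibody against N6-methyladenosine (m6A), which gives the IP library, and the fragments not put through the pull-down give the input library. METTL3 is the catalytic subunit of the enzyme that writes m6A on mRNA, mostly near stop codons and in 3′-UTRs. The table held interscapular brown adipose tissue (iBAT) of C57BL/6 mice that were 8 weeks old, fed normal chow. Controls were Mettl3 flox/flox mice, and BKO mice were Mettl3 flox/flox mice that also carried UCP1-iCre, so the deletion was directed to cells that express Ucp1, and the other cells of iBAT kept the gene. Both groups carried the same floxed allele. Each genotype had 1 IP and 1 input library, made from RNA pooled from 5 mice, so the genotypes were compared as 4 libraries with no replicate and no test, and each interval of a single gene or region below is a 95% counting interval, which covers counting error only. Intervals of medians describe the spread over genes.

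Library sizes read from the scaled counts (RPM, reads scaled to library size) were 8309098 for the IP and 8826904 for the input of flox/flox mice, and 13687380 for the IP and 13394053 for the input of BKO mice. Fold enrichment of a region is its RPM in the IP divided by that in the input, and the log2 ratio sets the BKO value over the flox/flox value. Regions at or under 1 in one genotype or the other are not in the table. Where a gene had several regions, the one that was most enriched in any genotype stood for it. Over all genes the median log2 ratio was -1.34, so the members are read against a table that fell as a whole. Of 9 fixed skeletal muscle markers, 7 had a region, and all 7 had more input in BKO than in flox/flox. Their input summed to 334 RPM in BKO but 8.72 RPM in flox/flox, where *Myh7* had no read, and *Myh4*, a myosin heavy chain gene, went from 4.87 to 214 RPM. Of the 7 brown adipocyte markers, 5 had a region and 2 of these were higher in BKO, with summed input at 389 and 384 RPM. Among the 5, *Ucp1* was at 229 and 216 RPM and *Dio2* at 9.97 and 3.51 RPM. The summed input of the general adipocyte markers (5 of 5 listed, 4 higher) went from 951 to 1846 RPM, that of macrophage and immune markers (3 of 6 listed, all 3 higher) from 8.50 to 32.3 RPM, and that of endothelial markers (4 of 5 listed, 2 higher) from 235 to 142 RPM. Each of these values is the input at 1 region of the gene, not the level of the whole transcript. *Adipoq*, at 758 and 1290 RPM, made up most of the adipocyte sum, and *Pparg* had no read in either input. By qPCR the paper reported lower mRNA of adiponectin (*Adipoq*), aP2 (*Fabp4*), *Pparg* and *Ucp1* in BKO iBAT, which the adipocyte sum does not show. In bulk tissue, fewer cells of a type and less RNA per cell cannot be told apart.

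RefSeq (GRCm38.p6) annotates 78 protein-coding Mrpl and Mrps genes, and all 42 members matched it by symbol. A region was thus listed for 53.8% of the family, against 26.9% of all 21900 protein-coding genes. With subunits taken from the symbol alone, the share was 28 of 49 Mrpl genes and 14 of 29 Mrps genes. The other 36 genes, *Mrps12*, *Mrps16*, *Mrpl4* and *Mrpl16* among them, had no listed region and therefore no value here.

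The 42 genes carried 50 regions. Of these, 33 lay at the 3′ end of the gene (a label of last exon or 3′-UTR, or an overlap with the RefSeq gene end), 9 lay at or within 50 bases of the RefSeq start, and 8 lay elsewhere in the gene body. The 9 start regions behaved unlike the 3′ regions, as given further on. For *Mrpl24* the start used was 87919544, an inner RefSeq start of a gene that begins at 87918131. The sequences below are stretches of the first 50 transcribed bases of those genes that hold GGAC, the core of the m6A consensus. Each stretch was placed to show the motif, so it need not begin at the start. These stretches are RefSeq sequences of GRCm38.p6 on the transcribed strand, 30 bases each, with GGAC in capitals.
Mrpl3, chr9:105053281-105053310, plus strand: ggagggcattggcGGACaaacggcgtgact
Mrpl24, chr3:87919545-87919574, plus strand: attttgtagcaacGGACtagagttcccaga
Mrpl33, chr5:31613971-31614000, plus strand: taggcgggtctcggtgagaatcggtGGACc
Mrpl53, chr6:83109123-83109152, plus strand: tttggctcggctcGGACtacggccggtcaa
Mrpl55, chr11:59202505-59202534, plus strand: gcgggcgccttcaGGACatctgggttatgg
The motif GGAC stood in the first 50 transcribed bases of these 5 of the 9 genes, counted on the transcribed strand only. It stood in 11 of 39 windows of members in RefSeq's promoter table (28.2%; 36 of 42 members had a window) and in 18.9% of all 32851 windows. The remaining 4 genes with a start region, *Mrpl11*, *Mrpl40*, *Mrpl51* and *Mrps18c*, held no GGAC in that stretch. The motif lay within the listed region of *Mrpl33*, *Mrpl53* and *Mrpl55*, whereas in *Mrpl3* and *Mrpl24* it ended a few bases before the region began. CCATG, which reads CCAUG in RNA, was searched as well. It stood in 2 of the 9 genes, in 5 of 39 windows of members and in 5.57% of all windows. The paper reported CCAUG as the motif enriched in BKO peaks, and GGACU as that of flox/flox peaks. The first base was G at 6 of the 9 starts, in 26 of 39 windows of members and in 35.6% of all windows. A match is a description of the letters.

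Fold enrichment was lower in BKO iBAT at 36 of the 42 genes, and at 34 of them by at least 2-fold. Among all genes, 70.7% were lower and 56.5% were lower by at least 2-fold. The 34 include *Mrpl33*, which had no read in the flox/flox input, and without it they were 33 of 41. The median log2 ratio of the members was -3.24 (interval over genes -3.74 to -2.23), and the median enrichment went from 14.0 in flox/flox mice to 1.57 in BKO mice. The counting interval lay below 0 at 33 genes, against 50.9% of all genes. A peak was called at 36 members in flox/flox (72.4% of all genes) and at 28 in BKO (69.9% of all genes). Only *Mrpl3* and *Mrps6* were at least 2-fold higher, against 17.0% of all genes, and only *Mrps6* had its interval above 0, against 11.4% of all genes.

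Fold enrichment varied less between the members in BKO iBAT than in flox/flox iBAT, as it did over all genes. It ran from 1.19 at *Mrpl3* to 98.4 at *Mrps25* in flox/flox, and the SD of its log2 over genes was 1.65. In BKO that SD was 0.78, while over all genes the SD went from 1.76 to 1.20. A fold enrichment of 10 or more was found at 24 members in flox/flox (39.7% of all genes) and at 1 in BKO (9.57% of all genes). At the 31 genes whose value came from a 3′ region the SD was 1.23 in flox/flox and 0.39 in BKO, where 28 of 31 lay under 2. Over all genes at a region labelled last exon or 3′-UTR, the SD went from 1.63 to 1.12, and 33.4% lay under 2 in BKO. Pearson's r between the log2 fold enrichment in flox/flox and the log2 ratio was -0.93 over the 42 genes. Both measures share the flox/flox libraries, and the listing of regions only above 1 bounds how far a weakly enriched gene could fall.

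**Figure D1:**
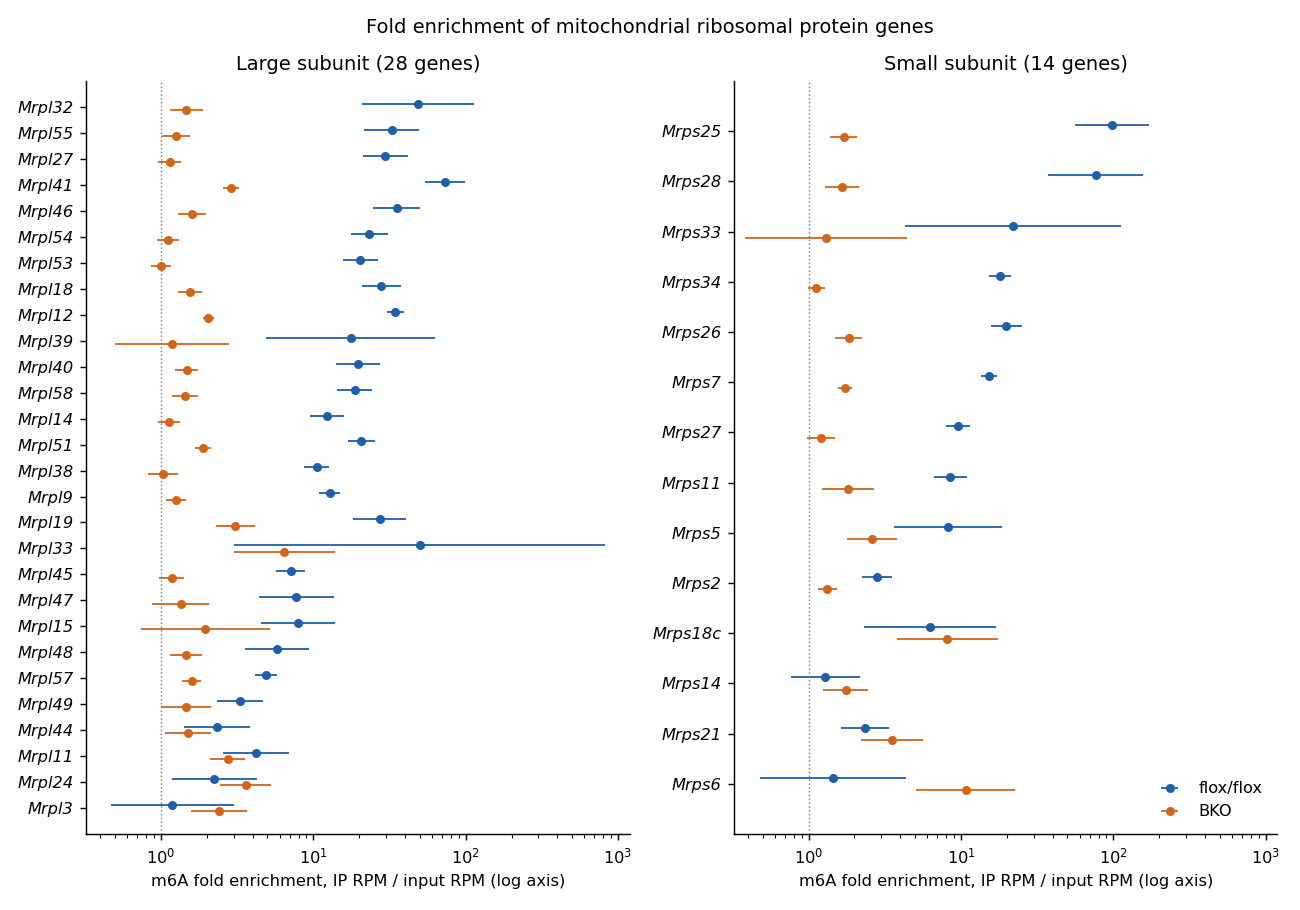
Fold enrichment (IP RPM over input RPM, log axis) of each of the 28 large and 14 small subunit genes in flox/flox (blue) and BKO (orange), with 95% counting intervals as bars. The flox/flox points spread from 1.19 to 98.4, while most BKO points lie between 1 and 3, and the order of genotypes turns at the foot of each panel.

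In the large subunit 26 of 28 genes were lower, 24 of them by at least 2-fold, with a median log2 ratio of -3.40 (-4.08 to -2.51). Their median enrichment went from 18.2 to 1.47. In the small subunit 10 of 14 genes were lower, all 10 by at least 2-fold, with a median of -2.60 (-4.07 to 0.44), and their median enrichment went from 9.03 to 1.74. The medians differed by -0.79, and their intervals over genes overlapped over nearly the whole of the large subunit's. That difference was -0.42 with 20 or more input reads in each genotype, also -0.42 at regions naming 1 gene, -0.31 where a peak was called in flox/flox, and 0.02 with the mean over all regions of a gene, so its size and sign rested on how regions were chosen. The place of the region differed between the subunits as well. Of the genes' values, 22 of 28 in the large subunit and 9 of 14 in the small subunit came from a 3′ region, and over those alone the medians were -3.72 (-4.40 to -3.15) and -3.43 (-5.54 to -2.23). All 31 of these genes fell by at least 2-fold with the interval below 0. Among all genes at a region labelled last exon or 3′-UTR, 57.8% had the interval below 0. A peak was called in flox/flox at all 31, but at 3706 of those 4678 genes.

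Within each subunit, the proteins with a bacterial counterpart were set apart from those found only in mitochondrial ribosomes. In the large subunit, 12 of 14 genes with a counterpart were lower (median -3.24) and 14 of 14 without one were (median -3.57). In the small subunit, 5 of 9 genes with a counterpart were lower (median -1.08) and 5 of 5 without one were (median -4.01). The 4 small subunit genes that were not lower, *Mrps6*, *Mrps14*, *Mrps18c* and *Mrps21*, all have a bacterial counterpart, and none of the 4 was represented by a 3′ region. In the large subunit, all 4 genes represented by a start region, *Mrpl3*, *Mrpl11*, *Mrpl24* and *Mrpl33*, have a bacterial counterpart too. Origin was thus not separated from the place of the region in these medians.

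Among the mitochondria-specific proteins of the small subunit, *Mrps25* had the lowest log2 ratio of all members. Its 3′-UTR region (chromosome 6, 92174758 to 92175245) had an IP of 279 and an input of 2.83 RPM in flox/flox, and an IP of 36.6 and an input of 21.6 RPM in BKO. Enrichment fell from 98.4 (56.3 to 172) to 1.70 (1.38 to 2.08), a log2 ratio of -5.86 (-6.71 to -5.00). Of 3605 genes with 20 or more input reads in each genotype, only 1 had a lower ratio. The flox/flox input of this region rested on 24 reads, and both a fall in the IP and a rise in the input, each 2.93 on the log2 scale, made up the change.

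*Mrps34*, whose product is needed for a stable small subunit, had an IP of 631 and an input of 34.9 RPM in flox/flox, and an IP of 77.7 and an input of 69.1 RPM in BKO. Its enrichment fell from 18.1 (15.4 to 21.3) to 1.12 (0.99 to 1.27), and the region also lies over *Mapk8ip3*, from which these counts cannot separate it. *Mrps26* had 340, 17.1, 38.6 and 21.0 RPM in the same order of libraries, and fell from 19.9 to 1.84. *Mrps27*, which encodes a pentatricopeptide repeat protein that binds RNA, had 283, 29.6, 27.4 and 22.6 RPM, and fell from 9.56 to 1.21. In these 3 genes the input changed by at most 0.99 on the log2 scale while the IP fell by 3.02 to 3.37, so the captured reads carried most of the difference.

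Of the small subunit proteins with a bacterial counterpart, *Mrps7*, part of the head that lies by the decoding site, had an IP of 1041 and an input of 68.3 RPM in flox/flox, and an IP of 137 and an input of 79.1 RPM in BKO at its last exon. Enrichment fell from 15.2 (13.6 to 17.1) to 1.73 (1.56 to 1.93), a log2 ratio of -3.14 (-3.37 to -2.91) and the narrowest interval in the small subunit. *Mrps11*, of the platform, had 132, 15.5, 10.4 and 5.75 RPM and fell from 8.50 to 1.82. There the input was lower in BKO as well, by a log2 ratio of -1.43. *Mrps28* fell from 76.6 to 1.65 (log2 ratio -5.54, -6.65 to -4.44), on 14 flox/flox input reads, and *Mrps33*, with 2 flox/flox input reads, had an interval of -7.02 to -1.12.

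In the large subunit, *Mrpl12* had the most captured reads of all members. It encodes the stalk protein that recruits translation factors and that also binds the mitochondrial RNA polymerase. Its last exon region had an IP of 1999 and an input of 57.9 RPM in flox/flox, and an IP of 227 and an input of 111 RPM in BKO. Enrichment fell from 34.5 (30.5 to 39.1) to 2.04 (1.87 to 2.23), a log2 ratio of -4.08 (-4.30 to -3.86), the narrowest interval of all members. The region also lies over a gene the table gives by identifier only.

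*Mrpl41* had the highest flox/flox enrichment in the large subunit, with an IP of 700 and an input of 9.63 RPM there, and an IP of 148 and an input of 51.5 RPM in BKO. It fell from 72.7 (53.7 to 98.4) to 2.87 (2.54 to 3.25), and thus kept an enrichment clearly above 1 in BKO. *Mrpl27*, whose bacterial counterpart reaches into the peptidyl transferase center, had 231, 7.82, 38.3 and 33.6 RPM in the same order and fell from 29.6 to 1.14. *Mrpl55* had 170, 5.21, 28.1 and 22.5 RPM and fell from 32.7 to 1.25. These were the largest falls among large subunit genes with at least 20 input reads, each by at least 25.3-fold.

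The next were *Mrpl46*, *Mrpl54* and *Mrpl53*, all mitochondria-specific proteins. *Mrpl46* had 251, 7.14, 35.0 and 21.9 RPM and fell from 35.2 to 1.60. *Mrpl54* had 283, 12.1, 42.3 and 38.2 RPM and fell from 23.3 to 1.11. *Mrpl53* had 277, 13.6, 50.7 and 50.4 RPM and fell from 20.4 to 1.01, so that its BKO IP and input were level (interval of the BKO enrichment 0.87 to 1.17). *Mrpl53* was the lowest of all members in BKO, and its region also lies over *Gm42688*. *Mrpl32*, whose protein is matured by the m-AAA protease, fell from 48.4 to 1.47 (log2 ratio -5.04, -6.31 to -3.77) on 10 flox/flox input reads.

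Some members were labelled away from the 3′ end but reached it. *Mrpl58*, which encodes a peptidyl-tRNA hydrolase that rescues stalled ribosomes, was labelled intron at the region's center. It had 252, 13.5, 36.5 and 25.4 RPM, again with the IP before the input and flox/flox before BKO, and fell from 18.7 to 1.44. *Mrpl9*, likewise labelled intron, covered the RefSeq gene end, had 493, 38.6, 55.3 and 43.8 RPM and fell from 12.8 to 1.26. *Mrpl57*, labelled 5′-UTR at its center, ended in the 3′-UTR, had 175, 35.7, 72.0 and 45.2 RPM and fell from 4.89 (4.12 to 5.81) to 1.59 (1.38 to 1.84). The falls of these 3 were each clear of their counting intervals. *Mrpl39* had 9.99, 0.57, 1.68 and 1.42 RPM and fell from 17.6 to 1.18, with 4 flox/flox input reads and an interval of -6.12 to -1.68. The smallest falls at a 3′ region were those of *Mrps2*, from 2.81 to 1.33, and of *Mrpl49*, from 3.30 to 1.46 in a region shared with *Syvn1*.

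Start regions went a different way from 3′ regions. The 9 start regions had a median log2 ratio of 0.38 (-0.63 to 1.02), against -3.45 (-4.08 to -3.14) for the 33 regions at 3′ ends. No start region had its interval below 0, and all 33 at 3′ ends did. Over the whole table the interval lay below 0 at 14.7% of the 770 regions labelled 5′-UTR or first exon and at 53.6% of the 5227 labelled last exon or 3′-UTR. A peak was called at all 9 start regions in BKO and at 3 in flox/flox, close to the shares of 94.8% and 32.5% among those 770 regions. At 3′ ends it was called at all 33 regions in flox/flox and at 19 in BKO, against 76.0% and 70.2% among those 5227. In BKO only, a peak was called at 6 of the 9 start regions, against 520 of those 770 regions. In flox/flox only, one was called at 14 of the 33 regions at 3′ ends. Among genes at a region labelled last exon or 3′-UTR this held for 1463 of 4678. The start regions had a median flox/flox enrichment of 2.24, against 18.7 at 3′ ends. No region at or under 1 is listed, so start regions had little room to fall. How far the listing set the contrast was not tested. The 770 regions had a median log2 ratio of 0.62, within the interval of the members' start regions, so the direction there was that of the whole table. IP RPM was higher in BKO at all 9 start regions (median log2 ratio 1.12), and input at 8 of 9 (1.19), against 85.1% and 85.2% of the 770 regions.

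**Figure D2:**
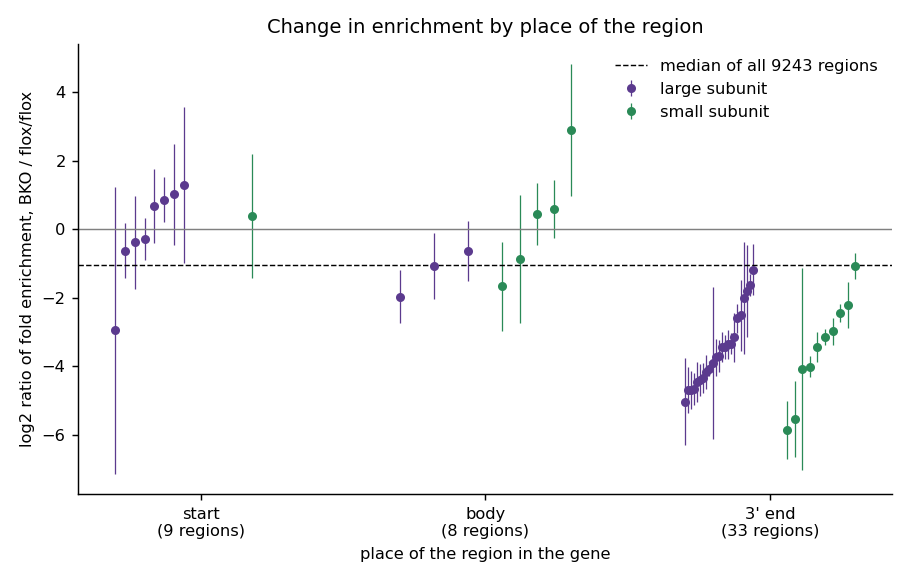
Log2 ratio of fold enrichment (BKO over flox/flox) for the 50 regions of the members, by place in the gene and subunit, with 95% counting intervals. The 33 regions at 3′ ends all lie below 0, and the 9 start regions lie around it, with a single start region (*Mrpl33*) far below and with a wide interval.

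At *Mrpl3*, a core protein beside the peptidyl transferase center in bacteria, the start region had an IP of 2.29 and an input of 1.93 RPM in flox/flox, and an IP of 10.6 and an input of 4.40 RPM in BKO. Its enrichments were 1.19 and 2.40, a log2 ratio of 1.02 (-0.45 to 2.49). *Mrpl24* had 6.86, 3.06, 17.7 and 4.93 RPM, with enrichments of 2.24 and 3.59 (0.68, -0.41 to 1.76). *Mrpl11* had 18.7, 4.42, 31.6 and 11.6 RPM, with 4.22 and 2.73 (-0.63, -1.44 to 0.18). All 3 intervals include 0, and the reads per region were few.

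*Mrps18c* had 6.38, 1.02, 9.13 and 1.12 RPM, with enrichments of 6.26 and 8.15 (log2 ratio 0.38, -1.43 to 2.19). *Mrpl33* had no read in the flox/flox input at its start region and 46 in the IP. In BKO it had 98 IP and 14 input reads, and the interval of the log2 ratio, -7.14 to 1.24, includes 0, so no direction is given for it. Its other region, still within the first exon by the label, had 22.7, 3.51, 14.8 and 4.78 RPM, with enrichments of 6.48 and 3.10 (-1.06, -2.03 to -0.10). Both regions of *Mrpl33* overlap a gene without a symbol. The medians of the members and of the large subunit were the same with 3 flox/flox input reads set for *Mrpl33*.

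Of the 8 members with more than 1 region, 5 had 1 region at the start or upstream and 1 at the 3′ end, which compares places within the same gene and libraries. In all 5 the 3′ region fell more, and the interval of the difference lay above 0. The start or upstream regions had flox/flox enrichments of 1.37 to 5.48, against 19.7 to 98.4 at the 3′ ends. No region at or under 1 is listed, so none of them could have fallen as far as its 3′ region did. The direction of the difference was therefore largely set by the listing. *Mrpl55* had a start region with an IP of 17.5 and an input of 10.8 RPM in flox/flox, and an IP of 28.9 and an input of 9.78 RPM in BKO, and its enrichment rose from 1.62 to 2.96 (log2 ratio 0.87, 0.20 to 1.53). Its 3′ region fell from 32.7 to 1.25, so the log2 ratios differed by 5.57 (4.63 to 6.52). The start region of *Mrpl55* is labelled intergenic, lies for the larger part before the RefSeq start and overlaps a gene without a symbol. Its input log2 ratio was -0.14, against 2.11 at the 3′ region, so reads of the same transcript are not shown for both. Both regions of *Mrpl40* also lie over *Gm28539*, and the start region of *Mrpl53* over *Gm42688* and a gene without a symbol.

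*Mrpl40* had 1.08, 0.79, 4.75 and 1.42 RPM at the start and 167, 8.50, 46.4 and 31.4 RPM at the 3′ end. It went from 1.37 to 3.35 at the start and from 19.7 to 1.48 at the 3′ end, a difference of 5.03 (2.70 to 7.36), with 6 flox/flox input reads at the start. *Mrps25* had 2.29, 0.79, 7.67 and 4.85 RPM at an internal exon. It went from 2.88 to 1.58 there and from 98.4 to 1.70 at the 3′-UTR, a difference of 4.99 (2.93 to 7.05). The start and exon regions of both genes were thus far thinner in reads than their 3′ regions. *Mrpl53* had 8.06, 1.47, 17.5 and 4.18 RPM at the start, and went from 5.48 to 4.19 there and from 20.4 to 1.01 at the end, a difference of 3.95 (2.54 to 5.37). *Mrpl51* had 14.6, 8.95, 51.4 and 38.6 RPM at the start and 450, 21.9, 113 and 59.5 RPM at the end. It went from 1.63 to 1.33 at the start and from 20.6 to 1.90 at the end, a difference of 3.15 (2.44 to 3.86). In BKO the start region of *Mrpl53*, *Mrpl40* and *Mrpl55* was the more enriched of the pair, and in flox/flox the 3′ region was in all 5.

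**Figure D3:**
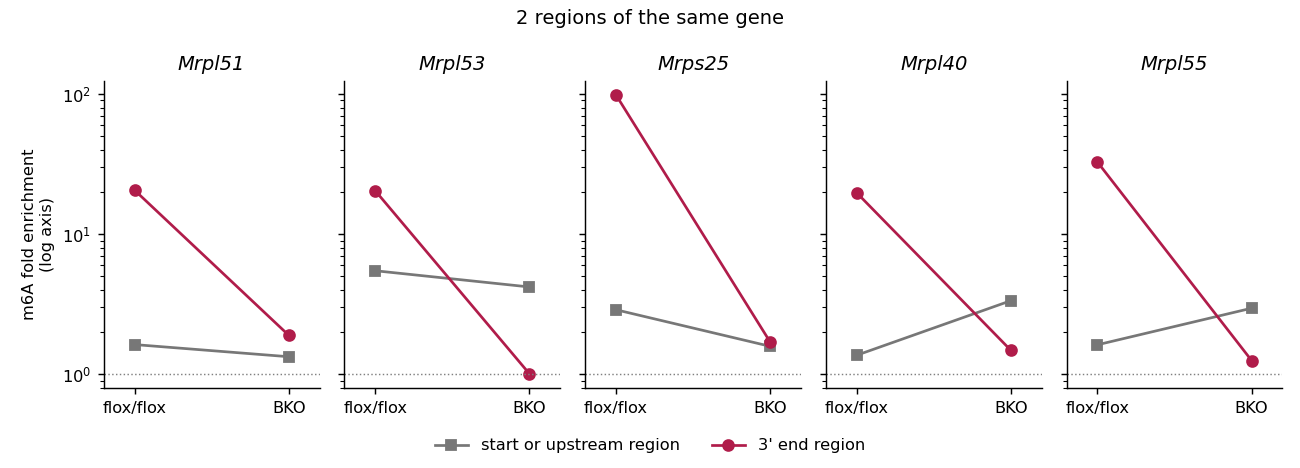
Fold enrichment (log axis) in flox/flox and BKO of both regions of the 5 members with a region at the start or upstream (grey squares) and one at the 3′ end (red circles). The red lines fall from between 19.7 and 98.4 to between 1.01 and 1.90, while the grey lines stay between 1.33 and 5.48.

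The other 3 genes with more than 1 region did not span the gene in this way. *Mrps7* and *Mrpl19* each had 2 regions at the 3′ end. In *Mrps7* the region in the last exon fell from 15.2 to 1.73 and a neighbouring region labelled intergenic, which also overlaps *Mif4gd*, from 8.25 to 1.52, log2 ratios of -3.14 and -2.44 that differed by 0.69 (0.35 to 1.04). In *Mrpl19* the region shared with *Gcfc2* fell from 7.56 to 2.18. The other had 157, 5.78, 26.6 and 8.66 RPM and fell from 27.2 to 3.07. Their log2 ratios of -1.80 and -3.15 differed by 1.35 (-0.17 to 2.88).

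Values from the gene body went both ways, from -1.97 at *Mrpl48* to 2.89 at *Mrps6*. *Mrps6* had an IP of 1.81 and an input of 1.25 RPM in flox/flox, and an IP of 12.1 and an input of 1.12 RPM in BKO, on 10 and 14 input reads. Its enrichment went from 1.45 (0.48 to 4.35) to 10.8 (5.10 to 22.7), a log2 ratio of 2.89 (0.97 to 4.81). The region lies in an intron of *Mrps6* and also over the last exon of *Slc5a3*, a myo-inositol transporter gene, and the counts of both cannot be told apart. *Mrps21* had 2.34 and 3.52, *Mrps14* 1.29 and 1.75, and *Mrpl44* 2.34 and 1.51, all with an interval that includes 0. *Mrps5* fell from 8.25 to 2.60 (-1.67, -2.97 to -0.37) and *Mrpl48*, at an intron region shared with a gene without a symbol, from 5.75 to 1.47 (-1.97, -2.75 to -1.19). The IP of *Mrpl48* was nearly level, at 25.4 and 24.0 RPM, and its input went from 4.42 to 16.4 RPM.

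Both libraries contributed to the ratio. IP RPM was lower in BKO at 34 of 42 members (58.6% of all genes), with a median log2 ratio of -2.35, against a median of -0.57 over all genes. Input RPM was higher at 35 of 42, with a median of 0.98, against 0.81 over all genes, where 74.4% were higher. The input interval lay above 0 at 24 members and below 0 at 5, against 39.9% and 7.05% of all genes. The large subunit's input was higher by more (median 1.34, higher at 25 of 28) than the small subunit's (0.35, higher at 10 of 14), and their IP medians were -2.20 and -2.72. The subunit with the lower median ratio was thus the one with the higher input median, while the other had the lower IP median. The higher muscle, macrophage and adipocyte markers in the BKO input stand beside these input values, and their part in them was not tested.

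**Figure D4:**
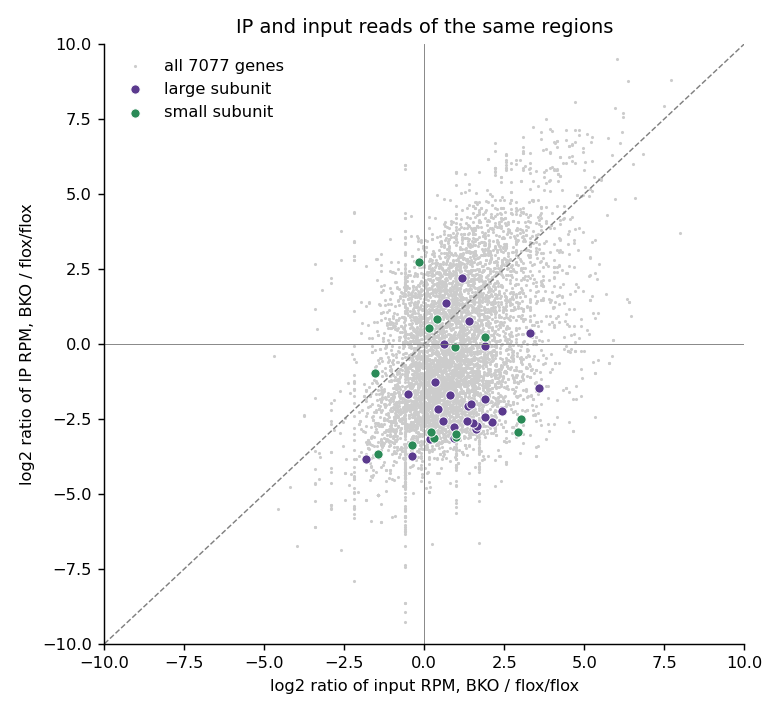
Log2 ratio of BKO over flox/flox RPM in the IP (vertical) and the input (horizontal) for all 7077 genes (grey) and the members by subunit. Points below the dashed diagonal have lower fold enrichment in BKO. Of the 42 members, 36 lie below it, most of them at an IP ratio between -2 and -4 and an input ratio above 0.

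The members were also compared with all genes at the same place, without and with a floor on input reads. By the table's own labels, 25 members took their value from a last exon or 3′-UTR region. All 25 were lower by at least 2-fold, against 60.6% of the 4678 genes there. Their median log2 ratio was -3.74 (-4.40 to -3.15) against -1.53 over those genes. Where each genotype had 20 or more input reads, the medians were -3.45 over 21 members and -1.42 over 2738 genes. Median flox/flox input was 119 reads in these members and 60 in these genes, so depth was not matched. Over the 25 members, flox/flox enrichment was higher than over the 4678 genes (median 20.6 against 7.66) and BKO enrichment lower (1.48 against 2.82). A peak was called in flox/flox at all 25 members, whereas 972 of the 4678 genes were called in BKO only. The sets were thus not matched on the genotype in which a peak was called.

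Other genes of mitochondrial translation were set beside the members. Of the 21 aminoacyl-tRNA synthetases and related enzymes of mitochondria, 14 had a region. Of these, 11 were lower (median -3.03), against 70.7% of all genes. The lowest was *Gatb*, of the amidotransferase that makes glutaminyl-tRNA, which fell from 37.3 to 1.16. The highest was *Hars2*, the histidyl-tRNA synthetase, with 1.49 and 7.54 on 4 flox/flox input reads. Of 11 translation factors, 7 had a region and all 7 were at least 2-fold lower (median -3.31), against 56.5% of all genes. Among them the release factor *Mtrf1* had 64 IP reads and no input read in flox/flox, and 14 and 6 in BKO (interval of the log2 ratio -9.47 to -0.62), and the translational activator *Taco1* fell least, from 7.86 to 2.39.

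Of 25 ribosome assembly and rRNA factors, 11 had a region and all 11 were lower (median -3.34), against 70.7% of all genes. They ran from *Tfb1m*, the dimethyltransferase of the small subunit rRNA, which fell from 42.9 to 1.57, to *Gtpbp10*, a GTPase of large subunit assembly, at 3.79 and 2.16. Of 6 ribosomal or ribosome-bound proteins under other symbols, 4 had a region and 3 were lower (median -1.82, nearer to that of all genes). *Gadd45gip1* fell from 53.0 to 1.30, *Oxa1l*, the inner membrane insertase, from 10.6 to 2.11 and *Chchd1* from 5.66 to 2.28. *Dap3*, of the small subunit, was at 1.16 and 2.73.

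Cytosolic ribosomal proteins and subunits of oxidative phosphorylation were the groups set beside the members. Of 21 cytosolic ribosomal protein genes, 19 were lower (median -2.49, -3.72 to -1.30). Of 46 oxidative phosphorylation subunit genes, 39 were lower (median -1.60, -2.11 to -0.42). Among all genes, 70.7% were lower. At last exon or 3′-UTR regions the medians were -3.38 over 14 and -2.47 over 10 genes, against -3.74 over the 25 members. The intervals over genes there were -3.95 to -2.24 for the cytosolic genes, -2.96 to -1.51 for the oxidative phosphorylation genes and -4.40 to -3.15 for the members. Genes are not replicates, so these intervals are no test of a difference. Median flox/flox enrichment there was 12.3, 6.79 and 20.6 in the same order, and median BKO enrichment was 1.52, 1.35 and 1.48. The groups thus differed more in flox/flox than in BKO enrichment. The shares of genes with a region were 53.8% for the members, 23.3% for cytosolic ribosomal proteins and 52.3% for oxidative phosphorylation subunits.

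**Figure D5:**
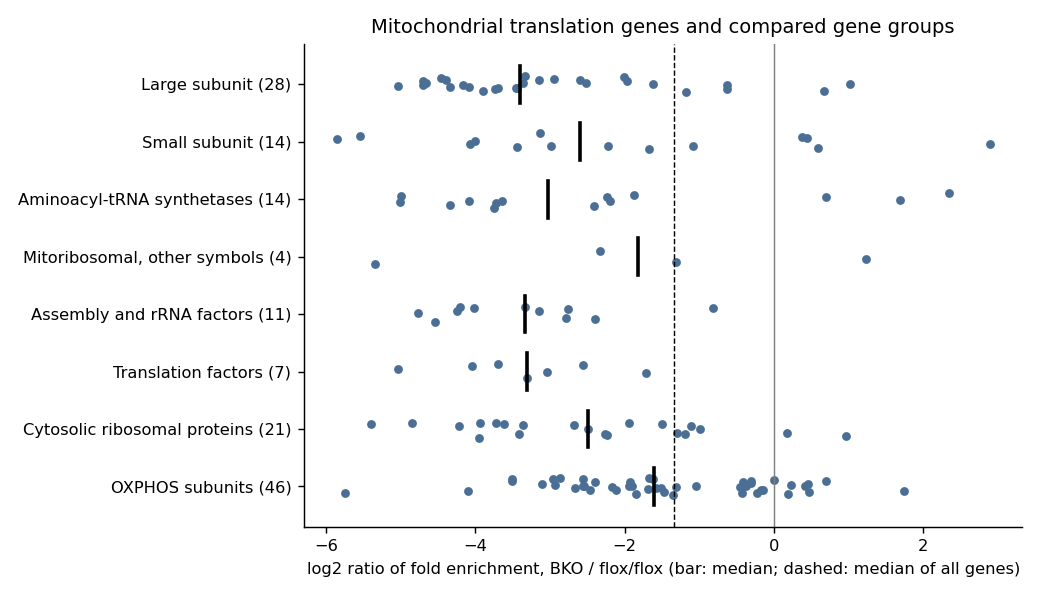
Log2 ratio of fold enrichment (BKO over flox/flox) for each gene (points) of both subunits, the other mitochondrial translation lists and the compared groups, with the number of genes in brackets. Black bars are medians, from -3.40 in the large subunit to -1.60 in oxidative phosphorylation subunits, and the dashed line is the median of all genes, -1.34.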

How the data were processed

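m6ARIP-seq of iBAT was analysed from the deposited peak comparison table, with 1 IP and 1 input library per genotype. Upstream, the authors used skewer for adaptors, BWA (0.7.12-r1039) with the Ensembl GRCm38 genome for mapping and MACS2 (2.1.0) for peaks. The table gives whole read counts per region, which the authors scaled, with 1 added to each count, to the deposited RPM values. It also gives marks, per the file headers another kind of column, for a peak called in either genotype. Columns of fold enrichment and log2 ratio hold the authors' own comparisons and were not used. Both were computed from the RPM instead. How reads were counted and peaks were joined is not given in the sources used here.

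Each counting interval (95%) used log counts after 1 was added and treated 2 reads as 1 fragment, and medians have binomial order-statistic intervals over genes, which are not replicates. Both cover counting or the spread over genes only. PCR duplicates add error that they do not cover. Intervals were tested on counts simulated under the same counting model, so that test does not reach any other error. A gene is represented by its most enriched region, and places are the authors' labels at the region's center unless RefSeq starts and ends are named. Members with values in every library were the 6 lowest ratios and the 4 highest flox/flox enrichments per subunit among those with 20 or more input reads in each genotype, those with the interval above 0, those with more than 1 region, and those labelled 5′-UTR, first exon or intron. Other members were named as examples after their values were seen. Kinases and binding proteins that share the ribosomal protein prefix and *Atp5sl* were left out of the compared groups. The members and lists were chosen with earlier results of these data known. The place of a region within the gene and the searches for motifs and first bases were chosen after its values were seen. The alternatives were other ways to combine regions, scaling, added reads, filters on input, called peaks and shared regions, and fold thresholds. Calculations used Python 3.11.15, pandas 2.3.3, NumPy 2.4.6, SciPy 1.17.1 and Matplotlib 3.10.9. RefSeq tables of GRCm38.p6 gave gene ends, starts and sequences.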

Additional observations from a re-analysis of the deposited data

How the results depend on the processing

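No paired analysis was possible because each genotype had 1 IP and 1 input library. The count of members with lower fold enrichment lay between 29 and 36 under all alternatives run, and the count at least 2-fold lower between 27 and 34. At a 1.5-fold threshold 36 were lower, and at a 4-fold threshold 29. The filters on input reads and on shared regions each left 33 members. Subtracting the median of all regions gave a median log2 ratio of -2.19 for the members and -2.35 for the large subunit, an input median of 0.17, and 6 members at least 2-fold higher, with 34 of 42 still lower. Under that scaling *Mrpl11* turned from -0.63 to 0.42. The mean over all regions of a gene gave -2.49 for the large subunit and a difference between subunits of 0.02, as start regions enter that mean. The count at least 2-fold higher was 1 with 5 reads added, with regions naming 1 gene, with start regions left out (chosen after seeing the data) and at a 4-fold threshold. It was 0 with at least 20 input reads or with peaks called in flox/flox, and 4 at a 1.5-fold threshold. With 1 read per fragment, also chosen after seeing the data, 35 members had the interval below 0. Few flox/flox input reads limit *Mrps33*, *Mrpl39*, *Mrpl32*, *Mrps28*, *Mrps6* and *Mrpl33*.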
